A study of Mus musculus with 3 samples.

Results

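EC2 is 1 of the 3 blood endothelial clusters that the authors separated among single cells of the mouse limbus and iridocorneal angle, the rim of the eye where aqueous humour leaves through Schlemm's canal (SC). Its members are the kept cells that carry the deposited EC2 label, matched by barcode to the deposited counts of unique molecular identifiers (UMIs), and they numbered 107 of 26008 kept cells, of which control replicate 1 gave 32, control replicate 2 gave 38 and *Angpt1*ΔNC replicate 1 gave 37. The single cells served to map the cell types of this region, with eyes whose neural crest cells cannot make the TIE2 ligand angiopoietin-1 as an aid to naming the clusters. Both control libraries came from *Angpt1* flox/flox mice, and the *Angpt1*ΔNC library came from *Angpt1* flox/flox;Wnt1Cre+ mice, so the controls carried the floxed alleles too. All mice were 6 weeks old and of mixed strain after 2 generations of crossing onto albino ICR animals, and each library pooled 4 to 6 eyes of 2 to 3 mice. Wnt1-Cre acts in the neural crest and the cells derived from it, such as much of the ocular stroma and pericytes, and not in vascular endothelium, so EC2 cells were not themselves the target of the deletion.

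The library is the replicate, which leaves 2 control samples and 1 *Angpt1*ΔNC sample. Over all kept cells, *Angpt1* was counted at 37.8 and 39.3 UMIs per 1000000 UMIs (CPM) in the controls and at 0.391 in *Angpt1*ΔNC, as the labels have it. In EC2 it had 0 UMIs in all 3 libraries, which allows up to 14.5, 8.35 and 9.43 CPM at 3 counts. EC2 cells had a median of 6148, 8732 and 9163 UMIs (control 1, control 2 and *Angpt1*ΔNC, the order used throughout), a median of 2098.5, 2760 and 2636 genes, and a median mitochondrial share of 2.62%, 3.33% and 3.23%. Summed over cells this gave 207152, 359429 and 318244 UMIs. Among all kept cells 52 barcodes occurred in more than 1 library, and 0 of these were EC2 cells.

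The labels state that male and female animals were pooled, but the control EC2 cells held no sign of female animals. By *Xist*, the RNA that coats the inactive X chromosome, and Y-linked transcripts, 26, 34 and 6 EC2 cells were typed as male and 0, 0 and 27 as female, with 6, 4 and 4 left untyped. Genotype, sex make-up, animal pool and library preparation therefore cannot be told apart in this design, and every genotype difference below carries this limit.

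Blood vessels differ along the vascular tree. Arterial endothelium uses Notch signalling and connexins, capillary endothelium carries exchange and fenestration genes, and venous endothelium displays the selectins and adhesion molecules that catch leukocytes in inflammation. Many of these adhesion molecules, with chemokines such as *Cxcl10*, are switched on through NF-kB and interferon signalling. The angiopoietin receptor TIE2 (*Tek*) keeps endothelium quiescent and is opposed by the phosphatase VE-PTP, which is the product of *Ptprb*.

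EC2 cells were blood endothelium by their markers. *Cdh5* (VE-cadherin) was detected in 32 of 32, 38 of 38 and 36 of 37 cells and *Pecam1* in 32, 34 and 32, against 1.29% of limbal epithelial cells or fewer in any library, although these epithelial cells were deeper (medians of 17717, 15168.5 and 15135 UMIs). *Prox1*, the regulator of lymphatic identity, had a UMI in 0, 2 and 0 cells, and *Lyve1* had none in any library, which limits the share of cells with a UMI to 9.38%, 7.89% and 8.11% and says nothing of expression below this depth. The whole list of lymphatic and canal genes, of which 11 of 13 had a UMI in EC2, summed to 1105, 645.5 and 499.6 CPM, against 604, 627 and 398 in EC3 and 1877, 1330 and 252 in EC4. Most of this came from *Nupr1*, a stress gene with a higher level in SC, at 965.5, 526 and 380 CPM in EC2 and 5323, 6681 and 3496 in SC. Of the 3 genes given as markers of the cluster, *Ptprb* had mean levels of 8.71, 7.80 and 4.39 UMIs per 10,000 (means over cells, the scale of all levels below), higher than in the blood endothelial clusters EC3 (4.80, 5.14 and 4.36) and EC4 (3.80, 4.69 and 2.27) in each library. *Cxcl10*, a chemokine for T cells, stood at 16.5, 17.4 and 14.4, against 6.15, 2.65 and 5.73 in EC3 and 2.81, 5.53 and 4.88 in EC4, while SC had 19.0, 11.2 and 3.27 and so lay above EC2 in control 1. *Itga5*, the fibronectin receptor subunit, stood at 1.18, 1.32 and 1.35 and was above both other clusters in the controls but not in *Angpt1*ΔNC, where EC3 reached 1.45.

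Of the endothelial cells, EC2 made up 10.8% in control 1 (32 of 295, exact Clopper-Pearson 95% CI 7.54 to 15.0), 11.6% in control 2 (38 of 327, 8.36 to 15.6) and 17.7% in *Angpt1*ΔNC (37 of 209, 12.8 to 23.6). Such intervals cover counting error only. The *Angpt1*ΔNC share was 1.58 times the mean of the controls, and the intervals overlapped. With SC and lymphatic cells left out of the denominator the shares were 13.0%, 14.4% and 20.3% and the ratio was 1.48, and among all kept cells they were 0.353%, 0.374% and 0.546% with a ratio of 1.50. These ratios rest on 1 *Angpt1*ΔNC library and were not tested. The numbers of EC2 cells themselves were alike (32, 38 and 37), while EC3 had 118, 118 and 58 cells and SC 46, 63 and 15.

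**Figure D1:**
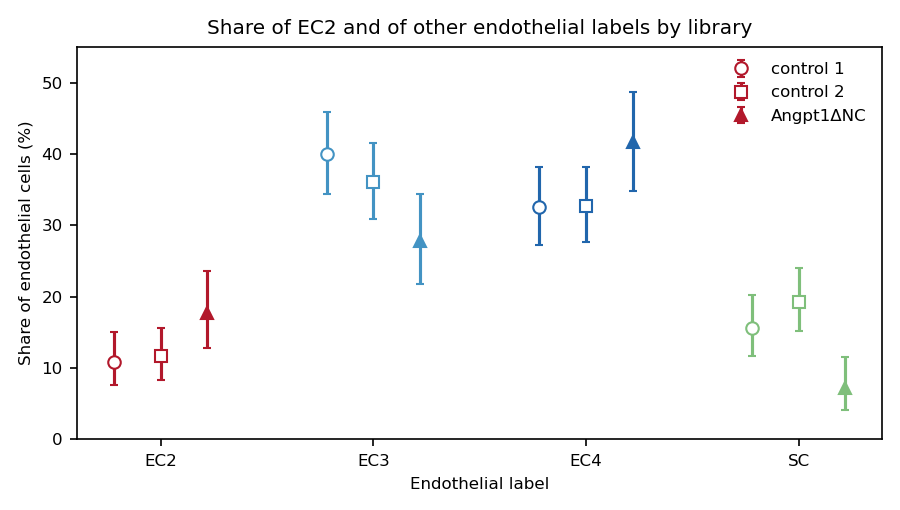
Share of all endothelial cells (%) carried by EC2, EC3, EC4 and the Schlemm's canal (SC) label in each library; points are libraries (open symbols controls, filled symbol *Angpt1*ΔNC) and bars are exact 95% intervals for counting error. EC2 lay at 10.8% and 11.6% in the controls and at 17.7% in *Angpt1*ΔNC.

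EC2 stood apart from EC3 and EC4 by genes of larger vessels and of veins. Because the cluster was made from the same expression values, the levels that follow describe it and were not tested. A gene was counted as above when its EC2 level exceeded both EC3 and EC4 in all 3 libraries, which held for 573 of 8522 genes (6.72%), and as below for 1087 (12.8%). Of 10 large-vessel genes with enough counts 5 were above and 0 below (*Vwf*, *Mgp*, *Edn1*, *Fbln2* and *Vcam1*), and of 12 venous genes 7 were above and 0 below (*Selp*, *Sele*, *Vcam1*, *Nrp2*, *Lrg1*, *Tmem252* and *Vwf*). The median log2 ratio of EC2 to the mean of EC3 and EC4 was 1.93, 1.36 and 0.94 for the large-vessel genes and 1.38, 1.22 and 1.04 for the venous genes, beside -0.13, -0.10 and -0.11 over all genes.

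*Mgp*, matrix Gla protein, an inhibitor of calcification and of bone morphogenetic proteins made in vessel walls, had levels of 65.2, 81.8 and 44.5 in EC2, against 3.48, 6.18 and 7.69 in EC3 and 1.93, 10.2 and 3.13 in EC4. It was found in 29 of 32, 37 of 38 and 33 of 37 EC2 cells, and in 10.0%, 21.6% and 13.1% of limbal epithelial cells. Almost every EC2 cell thus held a *Mgp* transcript, in controls and in *Angpt1*ΔNC. *Vwf*, the clotting factor stored in Weibel-Palade bodies, stood at 4.01, 1.99 and 4.17, above EC3 (0.206, 0.436 and 1.77) and EC4 (0.240, 0.536 and 0.329). *Edn1*, the vasoconstrictor endothelin-1, stood at 10.1, 3.56 and 13.2, and its lowest EC2 library still lay above EC3 (2.90, 2.26 and 3.23) of the same library.

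Of the leukocyte adhesion molecules 5 of 11 were above EC3 and EC4 and 0 below (*Selp*, *Sele*, *Icam1*, *Vcam1* and *Jam2*). *Vcam1*, which binds the integrin VLA-4 on leukocytes, stood at 5.15, 2.82 and 4.42, while EC3 (0.0620, 0.0702 and 0.210) and EC4 (0.0792, 0.0284 and 0.700) were far lower. *Sele* (E-selectin) stood at 3.99, 4.15 and 1.61 and *Selp* (P-selectin) at 3.15, 5.22 and 2.16, both above the highest level in EC3 and EC4 (0.463 for *Sele* and 0.962 for *Selp*). On this scale both selectins were lowest in *Angpt1*ΔNC, but on summed counts *Selp* had 246, 470 and 273 CPM, so that control 1 was lowest. Against SC the order was different, since SC had higher *Selp* in every library (16.3, 21.2 and 44.6), higher *Vcam1* in control 2 and *Angpt1*ΔNC (2.51, 4.41 and 5.78) and higher *Sele* in *Angpt1*ΔNC (1.72, 2.16 and 3.44). The marker of leukocyte-catching venules *Ackr1* had 0 UMIs in EC2, EC3 and EC4 in all libraries, and *Nr2f2*, which encodes the venous regulator COUP-TFII, was seen in 2, 4 and 1 EC2 cells, a smaller share (6.25%, 10.5% and 2.70%) than in limbal epithelium (13.2%, 13.8% and 14.4%).

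Capillary genes ran the other way, with 9 of 13 below and 1 above. *Plvap*, which forms the diaphragms of fenestrae and caveolae, had levels of 11.5, 11.0 and 3.36 in EC2, against 42.6, 40.5 and 20.4 in EC3 and 24.4, 24.0 and 18.9 in EC4. *Esm1*, a tip cell gene, stood at 0.695, 1.06 and 1.80, and *Gpihbp1*, the capillary anchor of lipoprotein lipase, at 0, 0.0238 and 0.0505, both below EC3 and EC4 in every library. The exception was *Slc2a1*, the glucose transporter of barrier capillaries, at 5.41, 5.13 and 9.83 in EC2 against 2.55, 2.42 and 9.43 in EC3. Limbal epithelial cells carried *Slc2a1* too (88.8%, 85.7% and 88.7% of cells). *Slco1a4*, an organic anion transporter also known from barrier vessels, was detected in 71.9%, 86.8% and 83.8% of EC2 cells and in 0.198% of epithelial cells or fewer, with levels of 4.23, 4.32 and 3.87 above EC3 (0.704, 0.611 and 2.37) and EC4 (0.409, 0.563 and 0.234).

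**Figure D2:**
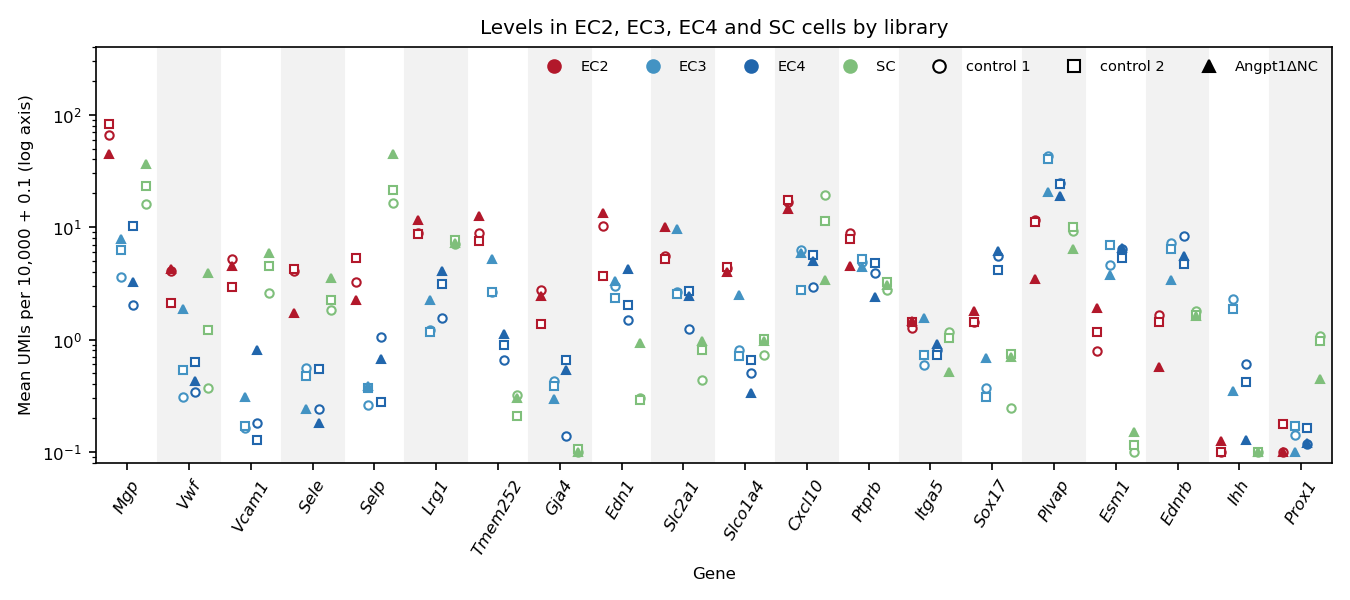
Mean level of single genes (UMIs per 10,000 plus 0.1, log axis) in EC2, EC3, EC4 and SC; each point is 1 library (open symbols controls, filled symbols *Angpt1*ΔNC). *Mgp*, *Vwf*, *Vcam1*, *Sele* and *Selp* lie highest in EC2 among the blood endothelial clusters and *Plvap* lies lowest in EC2, in each of the 3 libraries.

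Among arterial genes 2 of 13 were above and 1 below. *Gja4* (connexin 37) stood at 2.67, 1.28 and 2.32, against 0.325, 0.288 and 0.194 in EC3 and 0.0392, 0.557 and 0.439 in EC4. *Gja5* (connexin 40), a stricter arterial gene, was found in 1, 1 and 0 cells. The Notch list held 0 of 10 genes above and 3 below (*Dll1*, *Hes1* and *Nrarp*), and *Hes1*, a Notch target, stood at 5.67, 7.70 and 5.62 in EC2 against 13.5, 15.6 and 15.6 in EC3.

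Inhibitors and targets of NF-kB were above in 8 of 14 cases and below in 0, with median log2 ratios of 0.40, 0.41 and 0.83. *Nfkbia*, the inhibitor IkBa that NF-kB itself induces, stood at 47.5, 26.4 and 48.2 in EC2, against 22.8, 14.6 and 25.3 in EC3 and 18.9, 16.4 and 22.6 in EC4. *Tnfaip3* (A20), another feedback inhibitor, stood at 2.78, 2.00 and 3.82 against 1.61, 1.11 and 1.94 in EC3. Both genes were thus higher in EC2 in every library, while control 2 was the lowest of the 3 libraries in each cluster for *Nfkbia*. Interferon-stimulated genes were mixed, with 6 of 24 above and 1 below, and of the chemokines and cytokines *Cxcl10* and *Csf1* were above and *Cxcl1* and *Cxcl2*, which attract neutrophils, below.

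The promoters of *Cxcl10* and *Nfkbia* are shown because they carry the letters that NF-kB and interferon-regulated factors are known to read, in genes whose levels in EC2 were above EC3 and EC4 in every library. Each run is the 250 bases before the RefSeq start site on the gene's own strand (build GRCm38.p6), *Cxcl10* at chr5:92348890-92349139 and *Nfkbia* at chr12:55492648-55492897, both on the minus strand. Capitals mark matches to the NF-kB consensus and, in *Cxcl10* alone, to the interferon-stimulated response element (GAAA, any 2 bases, then GAAA again).
*Cxcl10*: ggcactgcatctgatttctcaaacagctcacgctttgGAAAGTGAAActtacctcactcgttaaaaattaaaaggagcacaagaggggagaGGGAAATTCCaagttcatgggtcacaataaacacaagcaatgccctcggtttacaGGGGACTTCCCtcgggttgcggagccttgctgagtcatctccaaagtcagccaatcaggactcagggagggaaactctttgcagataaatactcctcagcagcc
*Nfkbia*: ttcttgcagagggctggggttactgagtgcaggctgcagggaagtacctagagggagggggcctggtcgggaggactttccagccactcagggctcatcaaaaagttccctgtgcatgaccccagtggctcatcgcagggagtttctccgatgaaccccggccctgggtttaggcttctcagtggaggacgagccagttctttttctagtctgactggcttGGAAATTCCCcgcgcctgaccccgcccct
In *Cxcl10* the interferon element lies 213 to 204 bases before the start site, 1 NF-kB match lies at 159 to 150 and another pair overlaps between 104 and 94. In *Nfkbia* the NF-kB match lies 29 to 20 bases before the start. Both strands were searched, and a gene counted when any of its listed promoters matched. The NF-kB consensus was present in such a run of 250 bases for 7 of 11 genes of the NF-kB list. It was present for 6 of 10 of the chemokine list and 1 of 8 of the leukocyte adhesion list. Over all 32851 promoters of this length the share was 7.25%. The interferon element was present for 11 of 19 genes of the interferon list, beside 2.98%. Genes without a promoter entry, *Vcam1* and *Jam2* among them, are not counted. The 1 adhesion match was *Madcam1*, which had 0 UMIs in EC2. The NF-kB and interferon lists hold known targets, so their shares describe the lists and not EC2. Matches and levels did not always go together. *Cxcl1* and *Cxcl2*, which were below EC3 and EC4, carried 2 NF-kB matches each. *Sele*, *Selp* and *Icam1*, which were above, carried 0. A match describes the sequence and does not show binding in these cells.

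Heat shock genes were low in EC2, with 0 of 12 above and 10 below EC3 and EC4. *Hspa1a*, the inducible HSP70, stood at 0.380, 0.866 and 0.263, against 2.97, 3.58 and 1.12 in EC3 and 13.0, 5.57 and 0.636 in EC4, and the summed list reached 5271, 5439 and 3626 CPM in EC2, 7202, 7398 and 5167 in EC3 and 11630, 9541 and 6389 in EC4. These genes also answer to tissue dissociation, and immediate early genes, which do so too, were close between the clusters (14040, 11100 and 13330 CPM in EC2, 13340, 10230 and 10710 in EC3). The part of dissociation in these levels was not tested.

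Of the angiopoietin-TIE genes 3 of 8 were above and 1 below. *Ptprb* is described above, and *Foxo1*, a transcription factor restrained by TIE2 signalling, stood at 3.20, 2.87 and 4.15 in EC2 against 1.87, 2.00 and 3.25 in EC3. *Angptl4*, an angiopoietin-like gene that the list also holds, met the same rule at very low levels (0.348, 0.0670 and 0.0235). It had only 8, 2 and 1 UMIs in EC2, so the count of 3 leans on 1 gene with very few UMIs. The receptor gene *Tek* stood at 1.29, 1.31 and 1.18 and was detected in 16 of 32, 21 of 38 and 20 of 37 EC2 cells, beside EC3 (1.73, 2.04 and 0.864) and EC4 (0.877, 1.33 and 0.481). It thus lay below EC3 in the controls and above both clusters in *Angpt1*ΔNC, an order that did not hold on summed counts, where *Tek* in *Angpt1*ΔNC was 97.4 CPM in EC2 and 116 CPM in EC3. *Itgb1* was the gene below.

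Among the 2635 genes with a UMI in at least 0.25 of the EC2 cells of every library, ranked by the lowest of their 3 library ratios to the mean of EC3 and EC4 (0.1 added to each level), the leading genes were *Ch25h*, *Vcam1*, *Mgp*, *Sele*, *Csf2rb2*, *Cpe*, *Tmem252*, *Lrg1*, *Ctsh*, *Vwf*, *Rgs16*, *Csf2rb*, *Foxq1*, *Slco1a4*, *Gbp5*, *Rnd1*, *Cxcl10*, *Myof*, *Gja4* and *Avpi1*. *Selp*, with a UMI in 24.3% of the *Angpt1*ΔNC cells, was not ranked, although its ratios were 4.91, 16.5 and 4.28. *Ch25h*, which makes the lipid 25-hydroxycholesterol, stood at 1.25, 1.43 and 2.97, against 0.0398, 0.0814 and 0.191 in EC3 and 0.0134, 0.0837 and 0.241 in EC4. *Lrg1*, a secreted protein known in pathological vessel growth, stood at 8.74, 8.64 and 11.5 against 1.12, 1.08 and 2.13 in EC3, and *Csf2rb*, the shared receptor chain for GM-CSF and interleukin-3, at 2.64, 0.806 and 2.03 against 0.0399, 0.126 and 0.290. SC had *Lrg1* at 6.93, 7.56 and 7.10, below EC2 in each library. It had *Csf2rb* at 0.623, 1.35 and 2.13, above EC2 in control 2 and *Angpt1*ΔNC. *Rgs16* was higher in SC in both controls (7.20 and 9.15 against 2.50 and 2.48) but not in *Angpt1*ΔNC. At the other end, among 2469 genes with a UMI in as large a share of EC3 and EC4 cells, were *Id4*, *Ednrb*, *Col13a1*, *Smox*, *Nrarp*, *Plpp1*, *Tspan15*, *Ramp3*, *Plvap* and *Inhbb*. *Ednrb*, the endothelin B receptor, stood at 1.56, 1.33 and 0.472 in EC2 and at 7.06, 6.27 and 3.27 in EC3, so that EC2 was high for the ligand *Edn1* and low for this receptor.

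EC2 was not uniform. *Gja4* was detected in 13, 12 and 15 cells and *Selp* in 12, 14 and 9, yet only 1, 2 and 1 cells held both. Over the libraries *Selp* was found in 10.0% of 40 cells with *Gja4* and in 46.3% of 67 cells without it. This split was chosen after the values were seen, so it is described and not tested, and it depends on detecting transcripts at low counts. In limbal epithelium a *Gja4* UMI was found in 1.21%, 2.27% and 2.85% of cells and a *Selp* UMI in 0.202%, 0.494% and 0.329%, far below the EC2 shares (40.6%, 31.6% and 40.5% for *Gja4*, 37.5%, 36.8% and 24.3% for *Selp*).

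Some other genes followed the split and some did not. *Hey1*, a Notch target of arteries, stood at 0.556, 0.513 and 0.505 in cells with *Gja4* alone and at 0 in cells with *Selp* alone in all 3 libraries. It rests on 6, 10 and 8 UMIs over all EC2 cells, so the 0 does not show absence. Cells with neither gene had *Hey1* at 0.150, 0.315 and 0.493, in *Angpt1*ΔNC close to the cells with *Gja4* alone. *Cldn5*, a tight junction gene, stood at 25.0, 38.8 and 51.9 with *Gja4* alone and 8.14, 12.6 and 16.6 with *Selp* alone. *Edn1* stood at 17.4, 5.50 and 25.8 with *Gja4* alone, against 4.82, 2.60 and 4.80 with *Selp* alone. The cells with *Selp* alone were higher for *Plvap* (15.4, 12.3 and 4.04 against 5.81, 5.48 and 1.43) and for *Cxcl10* (34.4, 39.7 and 12.9 against 7.39, 15.2 and 3.51). These differences in *Hey1*, *Cldn5*, *Edn1*, *Plvap* and *Cxcl10* had the same direction in all 3 libraries. Cells with neither gene (8, 14 and 14) had *Plvap* at 15.7, 14.5 and 4.9, above the cells with *Selp* alone in every library. High *Plvap* was thus not particular to the cells with *Selp*. *Cldn5* in the cells with neither gene (21.94, 30.15 and 38.57) lay between the other 2 groups. *Sele* was found in 85.7% of 35 cells with *Selp* and 31.9% of 72 without it, *Vcam1* in 68.6% and 31.9%, and *Ptgs1* (cyclooxygenase-1) in 54.3% and 6.94%. By library *Ptgs1* was found in 66.7%, 64.3% and 22.2% of cells with *Selp* and in 5.0%, 12.5% and 3.57% without it. Limbal epithelium held *Ptgs1* too (3023, 1790 and 2429 UMIs). *Mgp* was found in 92.5% of cells with *Gja4* and 97.1% of cells with *Selp*, but its level was higher in cells with *Selp* alone in every library (92.5, 138 and 50.6 against 53.1, 64.1 and 42.3). *Sox17*, a regulator of arterial identity, was also higher in the cells with *Selp* alone (1.61, 2.70 and 2.08 against 0.539, 0.463 and 1.28), and the levels of *Vcam1* (3.24, 8.04 and 6.44 against 8.55, 0.536 and 3.93) and *Vwf* (3.77, 3.94 and 2.94 against 4.43, 1.10 and 4.31) had no fixed order. Median depths were 4965, 12580 and 9229 UMIs in cells with *Gja4* alone and 6667, 7416 and 10630 in cells with *Selp* alone, with no fixed order.

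**Figure D3:**
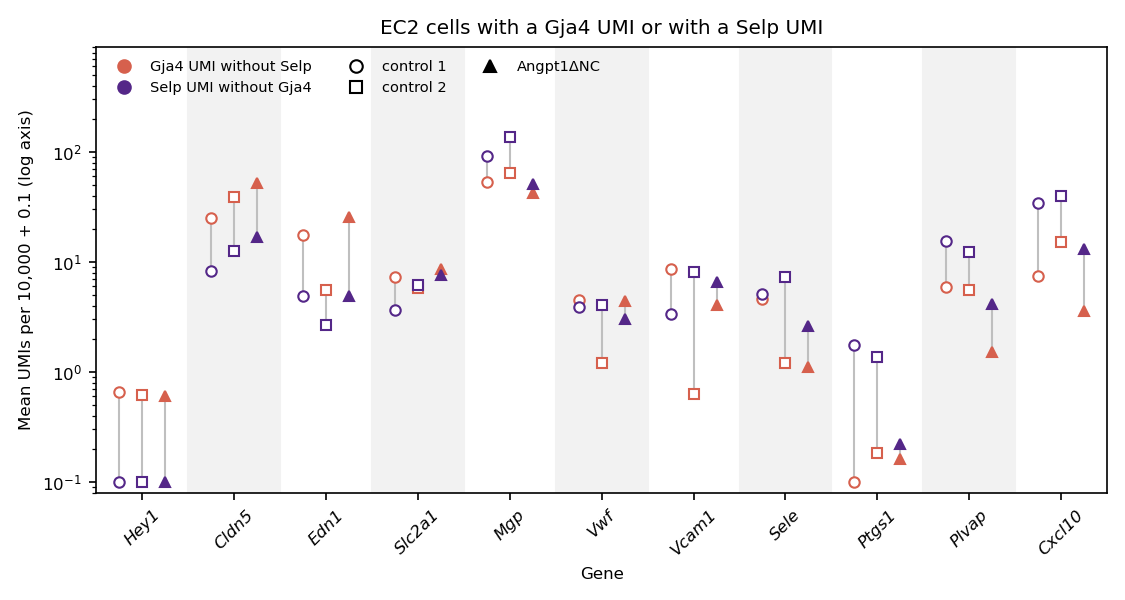
Mean level (UMIs per 10,000 plus 0.1, log axis) in EC2 cells with a *Gja4* UMI and no *Selp* UMI and in EC2 cells with a *Selp* UMI and no *Gja4* UMI; each pair joined by a line is 1 library (open symbols controls, filled symbols *Angpt1*ΔNC). *Hey1*, *Cldn5* and *Edn1* are higher in the *Gja4* cells and *Plvap*, *Cxcl10* and *Ptgs1* in the *Selp* cells, in each library. Cells with neither gene or with both are not drawn.

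Transcripts of other cell types were sparse in EC2. Of 12 pericyte and smooth muscle genes 8 had a UMI and the list summed to 43.5, 94.6 and 3.14 CPM, led by *Acta2*, with the pericyte genes *Pdgfrb*, *Cspg4* and *Higd1b* at 0. Immune genes summed to 82.1, 22.3 and 18.9 with the T cell genes *Cd3e* and *Cd3d* and with *Cd52* at 0, stromal genes to 82.1, 75.1 and 84.8 with *Dcn* the most abundant and *Pdgfra* and *Kera* at 0, and epithelial genes to 77.2, 52.9 and 53.4 with *Krt14* the most abundant. Pigment cell genes summed to 289.6, 106 and 53.4, led by *Dct*, of which 23 of 31 UMIs in control 1 came from 1 cell. Red cell genes summed to 14.5, 3252 and 34.6, and 1 cell of control 2 held 848 of its 850 *Hbb-bs* UMIs. The 3 haemoglobin genes that could be tested between genotypes were called on the strength of this library and are not read as a difference of EC2. Cell cycle genes summed to 82.1, 61.2 and 97.4, led by *Pcna*, with *Mki67* at 0 in all libraries.

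Within EC2, 147 of 3755 genes with enough counts differed between genotypes (3.91%, edgeR quasi-likelihood test with Benjamini-Hochberg adjusted p under 0.05), 90 higher in *Angpt1*ΔNC (2.4%) and 57 lower (1.52%). Besides sex-linked genes, interferon and chemokine genes (*Cxcl9*, *Ifit3* and *Gbp3*) rose with *Dusp2*, *Egr1* and *Edn1*, and *Hmox1*, *Apoe*, *Emcn*, *Plvap* and *Mgp* fell. The count depended on the model, with 34 called by DESeq2, 265 with RLE size factors and 76 of 2806 among male-typed cells alone. An unadjusted p under 0.05 was reached by 618 of the 3755 genes (16.5%), and the median log2 difference over all of them was -0.01. A single residual degree of freedom is left in this fit, which takes the lone *Angpt1*ΔNC library to vary as the controls do.

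Sex-linked genes differed between the libraries. *Xist* had 0, 0 and 386 UMIs, in 27 of 37 *Angpt1*ΔNC cells, at least 229-fold higher in *Angpt1*ΔNC against a floor of 3 counts over the controls. *Ddx3y* on the Y chromosome had 39, 70 and 7 UMIs and fell by 3.04 ± 0.44 (SE) on the log2 scale (edgeR quasi-likelihood, Benjamini-Hochberg adjusted p = 9.56e-05). All control cells that could be typed were male, and 27 of the 33 typed cells of *Angpt1*ΔNC were female. Among male-typed cells alone, of which *Angpt1*ΔNC had 6, the calls of *Dusp2*, *Ifit3*, *Ifi202b*, *Hmox1*, *Car8* and *Cd24a* described next were lost. The log2 difference there was 1.27 for *Dusp2*, 0.97 for *Ifit3*, -0.89 for *Hmox1* and -0.31 for *Cd24a*, smaller than over all cells. *Ifi202b* and *Car8* are too low in *Angpt1*ΔNC for an exact value. Their fits were -3.67 and -7.36 there and -5.69 and -4.91 over all cells, so that of *Car8* was not smaller.

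Among the genes higher in *Angpt1*ΔNC were *Cxcl9*, *Gbp2b* and *Ifit3*, which interferon is known to induce. All were also higher in EC3 and EC4. The log2 differences there were 1.15 and 2.33 for *Cxcl9*, 5.08 and 5.91 for *Gbp2b* and 2.74 and 2.61 for *Ifit3*. *Cxcl9* (chr5:92321347-92328079), an interferon-gamma-induced chemokine that shares the receptor CXCR3 with *Cxcl10*, had 29.0, 94.6 and 556 CPM, in 4, 8 and 10 cells. Its log2 difference was 3.09 ± 0.34 (SE; edgeR adjusted p = 1.16e-06), and few cells carried it, 1 cell holding 53 of the 177 UMIs in *Angpt1*ΔNC. DESeq2 did not call it. The log2 difference of *Cxcl9* was 2.54 without control 1 and 4.04 without control 2. *Gbp2b* (chr3:142594847-142619179), a guanylate-binding protein, had 14.5, 5.56 and 386 CPM and was present in 3, 2 and 30 cells, a log2 difference of 5.44 ± 0.41 (edgeR adjusted p = 2.37e-09), and this gene has near copies on the same chromosome among which reads may be split. *Ifit3* (chr19:34583531-34588731), an antiviral interferon target, had 140, 234 and 698 CPM and rose by 1.92 ± 0.28 (edgeR adjusted p = 9.56e-05).

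Most members of these lists did not pass. Of 24 interferon-stimulated genes tested 4 rose (*Ifit3*, *Gbp3*, *Rsad2* and *Cxcl9*) and 0 fell, with a median log2 difference of 0.36, and of 7 chemokines and cytokines 2 rose (*Cxcl9* and the fractalkine gene *Cx3cl1*) and 0 fell, with a median of 0.76, beside 2.4% of all tested genes that rose. An unadjusted p under 0.05 was reached by 10 and 3 of them, beside 16.5% of all tested genes, and DESeq2 called 1 interferon-stimulated gene and 0 chemokines and cytokines. *Gbp3* rose by 1.27 ± 0.26 and *Rsad2* by 1.04 ± 0.26 (edgeR adjusted p = 0.00309 and 0.0185). *Cxcl10* itself, the marker of the cluster, had 1023, 1196 and 1401 CPM, a difference of 0.40 ± 0.24 that did not pass (edgeR adjusted p = 0.424). *Ifi202b* (chr1:173962568-173982744), an interferon-inducible gene of the AIM2 family, went the other way with 96, 99 and 2 UMIs, a ratio of control to *Angpt1*ΔNC of 54.8 (95% counting interval 15.0 to 455).

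The NF-kB list had 2 of 12 genes that rose, *Bcl3* (1.27 ± 0.29) and *Tnip1* (1.40 ± 0.28), with edgeR adjusted p of 0.00965 and 0.00297, and 0 that fell, beside 2.4% and 1.52% of all tested genes. *Bcl3* modulates NF-kB dimers in the nucleus, and *Tnip1* acts beside A20 to restrain the pathway. The list's median log2 difference was 0.78. After scaling by TMM size factors, the *Angpt1*ΔNC library lay above both controls in 11 of the 12 genes, a position that 36.4% of all tested genes had. The exception was *Relb*, an NF-kB subunit. Unadjusted p was under 0.05 in 8 of the 12, beside 16.5% of all tested genes, and DESeq2 called 0. *Nfkbia* had 5078, 2829 and 4984 CPM before this scaling, so that control 1 was highest there. The controls lay far apart, and the gene differed by 0.40 ± 0.26. The remaining 10 genes of the list did not pass, among them *Icam1* (0.82 ± 0.27), *Tnfaip3* (0.86 ± 0.28) and *Birc3* (0.95 ± 0.35).

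Among genes outside these lists *Dusp2* (chr2:127336159-127338376), a nuclear phosphatase of MAP kinases, had 86.9, 36.2 and 487 CPM and was detected in 7 of 32, 9 of 38 and 25 of 37 cells. It rose by 3.17 ± 0.34 (edgeR adjusted p = 7.24e-07). *Egr1*, an immediate early transcription factor, had 126, 134 and 434 CPM and rose by 1.80 ± 0.27 (edgeR adjusted p = 0.000156), and with *Atf3* and *Zfp36* it was 1 of 3 immediate early genes of 16 that rose, beside 2.4% of all tested genes, while *Fos* and *Jun* differed by -0.03 and -0.04. DESeq2 called 1 of the 16. The controls lay close together for *Egr1* and more than 2-fold apart for *Dusp2*. *Eml1* (chr12:108370957-108539617), a microtubule-associated protein, had 67.6, 72.3 and 283 CPM and rose by 2.06 ± 0.30 (edgeR adjusted p = 9.56e-05), and it was found in 8, 11 and 29 cells. *Rpl29* (1.95 ± 0.28) and *Tpm3-rs7* (1.74 ± 0.26) also rose, but both belong to families with near-identical copies and are uncertain. In EC3 and EC4 *Eml1* rose by 1.44 and 2.22, *Rpl29* by 2.00 and 1.60 and *Tpm3-rs7* by 1.987 and 2.215.

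*Cyp1a1*, the cytochrome induced through the aryl hydrocarbon receptor, had 1, 0 and 40 UMIs, in 1, 0 and 8 cells. The ratio of *Angpt1*ΔNC to control was 71.2 (95% counting interval 12.1 to 2882; edgeR adjusted p = 1.63e-05), and 12 of the 40 UMIs lay in 1 cell. Its promoter is shown for the core of the xenobiotic response element, GCGTG, which that receptor is known to bind. The run is the 250 bases before the start site on the plus strand at chr9:57697363-57697612 (GRCm38.p6, RefSeq), with the element in capitals, 54 to 50 bases before the start.
*Cyp1a1*: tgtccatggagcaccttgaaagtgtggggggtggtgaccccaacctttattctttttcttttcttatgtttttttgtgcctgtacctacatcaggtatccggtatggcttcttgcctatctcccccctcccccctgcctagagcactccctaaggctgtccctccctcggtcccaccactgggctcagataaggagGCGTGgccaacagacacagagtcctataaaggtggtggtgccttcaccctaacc
These 5 letters are common, being found on either strand in 28.2% of 32851 promoters of this length.

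Capillary genes were lower in *Angpt1*ΔNC or did not pass. Of 7 capillary genes tested 3 fell (*Plvap*, *Rgcc* and *Car8*) and 0 rose, with a median log2 difference of -1.21, beside 1.52% of all tested genes that fell. An unadjusted p under 0.05, in either direction, was reached by 6 of the 7, beside 16.5% of all tested genes, and DESeq2 called 1. The *Angpt1*ΔNC library lay below both controls in 4 of the 7 and above both in 2. *Plvap* had 927, 949 and 286 CPM and fell by 1.65 ± 0.28 (edgeR adjusted p = 0.000559), and it was detected in 26, 36 and 22 cells. *Rgcc*, a cell cycle and hypoxia response gene, fell by 1.21 ± 0.29 (edgeR adjusted p = 0.0158), and *Car8* had 18, 46 and 1 UMIs. *Emcn*, the endothelial sialomucin endomucin, fell by 1.45 ± 0.28 (edgeR adjusted p = 0.00244), from 1023 and 1405 to 427 CPM. Both controls lay above *Angpt1*ΔNC for *Plvap*, *Rgcc*, *Car8* and *Emcn*.

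The large-vessel genes parted. *Mgp* had 6488, 6992 and 3359 CPM and fell by 0.94 ± 0.22 (edgeR adjusted p = 0.0136). *Edn1* had 975, 459 and 1518 and rose by 1.17 ± 0.30 (edgeR adjusted p = 0.0213), with 120 of its 483 UMIs in 1 *Angpt1*ΔNC cell, and *Clu*, which encodes the chaperone clusterin, rose by 1.96 ± 0.39 (edgeR adjusted p = 0.0026). Both controls lay above *Angpt1*ΔNC for *Mgp* and below it for *Edn1* and *Clu*. *Mgp*, *Plvap* and the other genes that set EC2 apart also took part in giving cells this label, so a difference in them within EC2 is given as a measured value only. *Vwf* (0.58 ± 0.30), *Gja4* (0.13 ± 0.35), *Selp* (-0.36 ± 0.32), *Sele* (-0.78 ± 0.29) and *Vcam1* (0.24 ± 0.34) did not pass. Of the 9 venous genes tested 1 was called lower, the prostaglandin transporter gene *Slco2a1*, beside 1.52% of all tested genes. It had 8, 32 and 3 UMIs, a ratio of control to *Angpt1*ΔNC of 7.49 (95% counting interval 2.38 to 37.8, edgeR adjusted p = 0.028). An unadjusted p under 0.05 was reached by 2 of the 9, beside 16.5% of all tested genes, and DESeq2 called 0.

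*Hmox1* (chr8:75093621-75100589), the haem-degrading enzyme heme oxygenase-1, had 994, 1416 and 295 CPM and fell by 1.97 ± 0.30 (edgeR adjusted p = 0.000155). *Apoe* (chr7:19696109-19699188), the lipid carrier, had 1163, 874 and 286 and fell by 1.76 ± 0.29 (edgeR adjusted p = 0.000451). Neither was the product of 1 cell, since *Hmox1* was found in 25, 35 and 25 cells and *Apoe* in 28, 36 and 28. *Apoe* is made by many cell types, macrophages among them, and the summed immune transcripts (82.1, 22.3 and 18.9 CPM) were highest in control 1 as *Apoe* was. The summed pigment cell transcripts (289.6, 106 and 53.4 CPM) had the same order of libraries as *Apoe*, and *Dct*, a melanin synthesis gene of that list with 31, 13 and 1 UMIs, was itself called lower (edgeR adjusted p = 0.012). The part of these transcripts in the difference was not tested. With the cells left out that held 2 or more genes of other cell types, *Apoe* fell by 1.70 and *Hmox1* by 1.76 on the log2 scale. *Klf2*, the shear stress regulator, fell by 1.14 ± 0.29 and *Slc6a6*, the taurine transporter, by 0.98 ± 0.28 (edgeR adjusted p = 0.0235 and 0.0421).

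Among other genes lower in EC2 cells of the *Angpt1*ΔNC library, *Fam174b* and *Gm10260* were all but lost. *Fam174b* (chr7:73740302-73776919) had 54, 96 and 1 UMIs, a ratio of control to *Angpt1*ΔNC of 84.3 (95% counting interval 14.9 to 3350). *Gm10260* (chr13:97760072-97760632), a predicted gene whose reads may be shared with a near copy and which is therefore uncertain, had 73, 218 and 0 UMIs and was at least 54.5-fold lower against a floor of 3 counts in *Angpt1*ΔNC. Both were also lower in EC3 and EC4. *Fam167b* fell by 2.34 ± 0.34 and *Cd24a*, a small surface glycoprotein, by 2.00 ± 0.33 (edgeR adjusted p = 9.56e-05 and 0.000468).

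**Figure D4:**
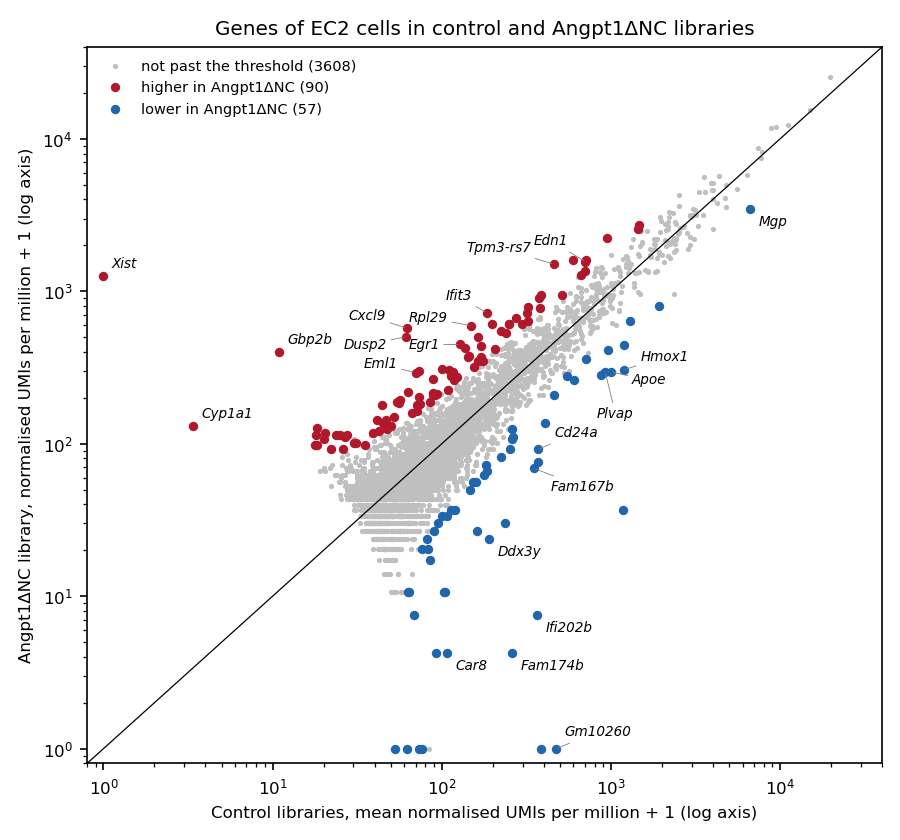
Level of each tested gene in EC2 cells of the *Angpt1*ΔNC library against the mean of the controls (normalised CPM plus 1, both axes log); each point is 1 of 3755 genes, coloured where the edgeR quasi-likelihood test with Benjamini-Hochberg adjustment called it (90 higher, 57 lower), with the line of equality. *Gbp2b*, *Dusp2* and *Cxcl9* lie far above the line and *Hmox1*, *Apoe* and *Plvap* below it.

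None of the angiopoietin-TIE genes passed in EC2. *Tek* had 111, 114 and 97.4 CPM, a log2 difference of -0.15 ± 0.34, and *Tie1* differed by -0.03 ± 0.29. *Ptprb* had 729, 801 and 515 CPM and differed by -0.51 ± 0.26 (edgeR adjusted p = 0.337), *Foxo1* by 0.73 ± 0.26 and *Itgb1* by -0.93 ± 0.29 (edgeR adjusted p = 0.12 and 0.0682). Over the 7 tested genes the median was -0.03. A miss does not show equal levels, and 2 of the 7 had an unadjusted p under 0.05 (*Foxo1* and *Itgb1*) beside 16.5% of all tested genes, while DESeq2 called 0. *Angpt2*, the context-dependent antagonist made by endothelium, had 86.9, 75.1 and 91.1 CPM.

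Heat shock genes passed in 0 of 11 cases by edgeR and by DESeq2, with 7 at an unadjusted p under 0.05 beside 16.5% of all tested genes, although in 10 of the 11 the *Angpt1*ΔNC library lay below both controls (38.2% of all tested genes did) and the median was -0.66. Arterial, VEGF, Notch, bone morphogenetic protein, integrin, leukocyte adhesion and haemostasis genes gave no call by edgeR or DESeq2 in 8, 6, 6, 11, 5, 10 and 10 tested genes, and the list of glaucoma and eye pressure genes none in 13. An unadjusted p under 0.05 was seen for 2 of the 11 bone morphogenetic protein genes, 2 of the 5 integrins, 3 of the 10 adhesion genes and 0 of the others, beside the same 16.5% of all genes. Of 13 vessel wall matrix genes tested 1 rose, *Col4a2* by 0.99 ± 0.26 (edgeR adjusted p = 0.0269), and 1 fell, *Mgp* as given above. Of 6 caveolar genes 1 rose, *Ehd2* by 1.43 ± 0.32 (edgeR adjusted p = 0.00862), and 0 fell. Over all tested genes 2.4% rose and 1.52% fell. DESeq2 called 1 of the matrix genes and 0 of the caveolar genes. *H2-T22*, a class I histocompatibility gene, rose by 1.93 ± 0.37 (edgeR adjusted p = 0.00217) and belongs to a multigene family in which reads may be split.

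Whether a change was particular to EC2 was tested as the difference between its genotype change and the mean change of EC3 and EC4. Of 3755 genes 29 passed (0.772%), 11 with the higher change in EC2 (0.293%) and 18 with the lower (0.479%). Of the 147 genes called within EC2, 10 were among these 29, and *Gbp2b*, *Ifit3* and *Eml1* were not. EC3 in *Angpt1*ΔNC held 10 male and 42 female cells and EC4 held 44 male, 33 female and 2 with both signals, so the clusters differed in sex make-up too, and the part of this in the differences was not tested.

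*Dusp2*, *Egr1* and *Pdlim1* had the higher change in EC2. For *Dusp2*, 86.9, 36.2 and 487 CPM in EC2 stood beside 33.7, 31.3 and 64.0 in EC3 and 58.0, 60.6 and 71.5 in EC4, and the log2 difference of changes was 2.48 ± 0.38 (edgeR adjusted p = 0.00222). *Egr1* was nearly flat in EC3 (186, 107 and 112) and EC4 (152, 112 and 162), and its difference of changes was 1.69 ± 0.30 (edgeR adjusted p = 0.00926). *Pdlim1*, an actin-associated LIM protein, had 126, 75.1 and 298 CPM in EC2 and 183, 179 and 78.0 in EC3, opposite directions, with a difference of 2.22 ± 0.34 (edgeR adjusted p = 0.00222). *Cyp1a1* had 1, 0 and 40 UMIs in EC2, 138, 37 and 8 in EC3 and 275, 92 and 465 in EC4 (edgeR adjusted p = 0.000763), so the controls of EC2 held far less of it than those of EC4.

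The fall of *Plvap* was deeper in EC2 than the mean of EC3 and EC4. In EC2 it went from 927 and 949 to 286 CPM and in EC4 from 2236 and 2297 to 1912, with a difference of changes of -1.11 ± 0.17 (edgeR adjusted p = 0.00243). In EC3 it went from 3788 and 3733 to 1915, and against EC3 alone the call was lost. *Marcksl1*, an actin-regulating protein, was held in EC2 (787, 523 and 569) while EC3 (1339, 1048 and 648) and EC4 (897, 625 and 205) were lower in *Angpt1*ΔNC, a difference of 1.19 ± 0.21 (edgeR adjusted p = 0.00923) that also did not pass against EC3 alone.

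The interferon-inducible genes *Mndal* and *Ifi203* were lower in the *Angpt1*ΔNC library in EC2 and higher in it in EC3 and EC4. Their log2 changes in EC2 alone (-0.62 and -0.44) were not called, and only the differences of changes passed. *Mndal* had 526, 495 and 311 CPM in EC2 against 186, 185 and 372 in EC3 and 269.5, 325 and 804 in EC4, and the difference of changes was -1.93 ± 0.24 (edgeR adjusted p = 0.000721). *Ifi203* had 777, 759.5 and 531 in EC2 and 306, 307 and 542 in EC3, a difference of -1.56 ± 0.21 (edgeR adjusted p = 0.000918). *Mndal* and *Ifi203* overlap on the same strand at chr1:173849126-173942491 and chr1:173920407-173942672, so that their reads may be shared and they count as 1 observation. *Ifit1* also had a lower change in EC2 than the mean of EC3 and EC4 (-1.23 ± 0.24, edgeR adjusted p = 0.0142).

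*Vcam1* and *Spock2* had the smaller change in EC2, where their levels were highest among the blood endothelial clusters. *Spock2*, a matrix proteoglycan, had 140, 170 and 251 CPM in EC2, but 8.20, 13.1 and 112 in EC3 and 20.3, 20.2 and 103 in EC4 (difference of changes -2.15 ± 0.32, edgeR adjusted p = 0.00222). *Vcam1* had 545, 223 and 418 CPM in EC2, 10.9, 10.2 and 26.0 in EC3 and 7.25, 9.32 and 78.4 in EC4, a difference of -2.07 ± 0.45 (edgeR adjusted p = 0.0376). The EC3 and EC4 values of both genes were higher in *Angpt1*ΔNC than in either control. *Icam1* differed by 1.40 ± 0.25 (edgeR adjusted p = 0.00926), with changes of 0.88 in EC2, 0.57 in EC3 and -1.62 in EC4. *Fam174b*, with its single UMI in *Angpt1*ΔNC EC2 cells against 94 in EC3 and 27 in EC4, also passed (edgeR adjusted p = 0.00926).

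**Figure D5:**
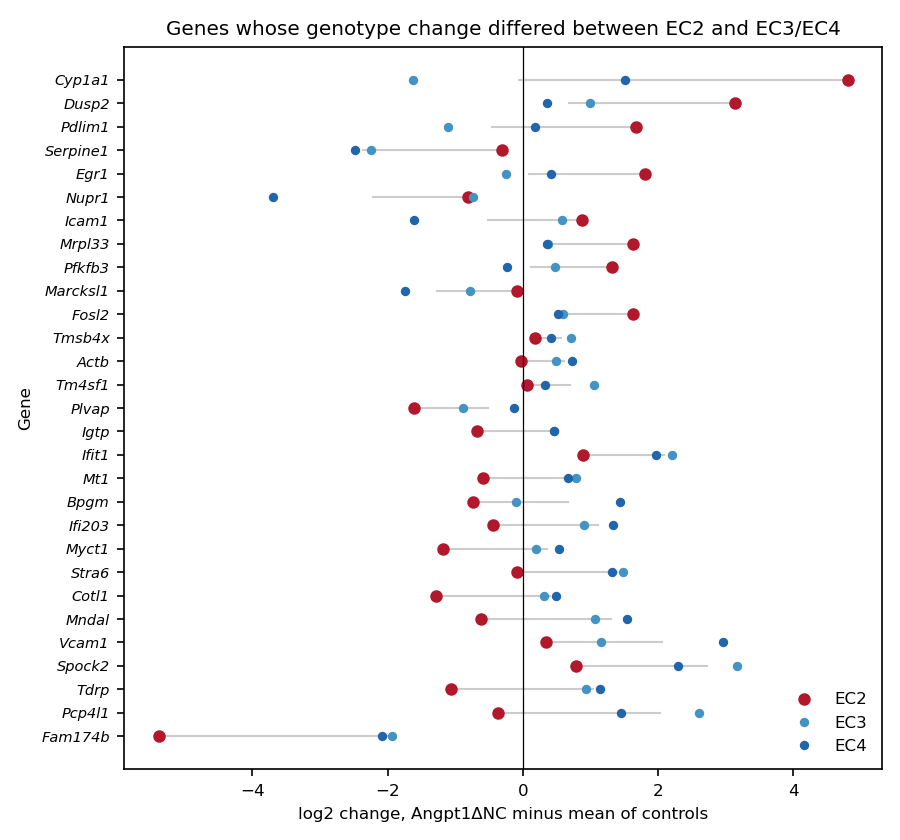
log2 genotype change (*Angpt1*ΔNC minus the mean of the controls) in EC2, EC3 and EC4 for the 29 genes whose change in EC2 differed from the mean change of EC3 and EC4; each row is a gene, points are the clusters and the line joins EC2 to that mean. *Cyp1a1*, *Dusp2*, *Pdlim1* and *Egr1* lie to the right in EC2, and *Fam174b*, *Spock2*, *Mndal* and *Ifi203* to the left.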

How the data were processed

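Single cells were measured with the 10x Genomics Chromium platform in 3 libraries, 2 control and 1 *Angpt1*ΔNC. Counting was done by the authors with Cell Ranger 2.1.1 according to the submitters' processing notes, which name mm10 and Seurat 3.1.3, while the matrix header gives version 3.0.2. The deposited UMI counts of 31053 genes are not normalised. The authors kept cells with at least 200 genes, at least 1000 UMIs and at most 10% mitochondrial UMIs, and their deposited cluster label was matched by barcode. Doublets had been removed by the authors. The 3467 gene columns of integrated natural log values that the authors deposited were not used.

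A level is the mean, over cells, of a gene's UMIs per 10,000 UMIs of the cell, and CPM values are counts summed over cells per 1000000 summed UMIs. Ratios to the mean of EC3 and EC4 add 0.1 to both levels, over genes with at least 30 UMIs in EC2, EC3 and EC4. A cell was positive at 1 UMI. Summed counts per library (genes with at least 30 UMIs in EC2) were compared with edgeR 4.0.16 in R 4.3.3 (TMM factors, quasi-likelihood test, Benjamini-Hochberg adjustment at 0.05), which was tested on simulated data. No outcome of that simulation is reported here, so it does not vouch for a fit with 1 *Angpt1*ΔNC library. The genotype fit has 1 residual degree of freedom and the fit of the difference between clusters 2. The SE given after ± is the size of the log2 difference divided by the square root of the test's F statistic. It follows from the test and is not a separate measure of spread. Fold bounds use a floor of 3 counts over the group. Counts of genes above or below both controls use TMM-scaled values. Alternatives were DESeq2 1.42.0, other size factors and filters, subsets of cells, other reference clusters and leaving out each library. Python 3.11.15 was used with pandas 2.3.3, numpy 2.4.6, scipy 1.17.1 (exact intervals) and matplotlib 3.10.9. The genes named are the 10 higher and 10 lower with the smallest p among those called, past a log2 difference of 1 and outside both controls, the 10 of the cluster difference, and members of 35 gene lists. Some genes that this rule selects are not reported here. The members and lists were chosen with earlier results of these data known. Positions come from GENCODE M21 (GRCm38), which held 30934 of the identifiers, and promoters from RefSeq (GRCm38.p6).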

Additional observations from a re-analysis of the deposited data

Results flagged for a closer look

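For 10 genes the test of the difference itself found that the genotype change in EC2 was not the mean change of EC3 and EC4. The values are log2 differences of changes (edgeR quasi-likelihood test, 10 of the 29 genes called among 3755). They were 2.48 for *Dusp2*, 2.22 for *Pdlim1*, 1.69 for *Egr1* and 1.19 for *Marcksl1*, and -1.93 for *Mndal*, -1.56 for *Ifi203*, -2.15 for *Spock2* and -1.11 for *Plvap*. For *Cyp1a1* (6.27) and *Fam174b* (-4.17) the fitted value depends on the prior count, because EC2 held 1 UMI or fewer in a control or in *Angpt1*ΔNC. Groups of 2 and 1 libraries are too small for a test of outlying samples.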

How the results depend on the processing

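Which genes differ between genotypes in EC2 depended on the model. The 147 calls became 265 with RLE size factors and 252 with edgeR's own filter (of 4705 genes), in both of which all 147 remained, and 176 without a filter (of 11674 genes, 70.5% of the calls higher in *Angpt1*ΔNC against 61.2% in the reported fit). DESeq2 called 34, of which 32 were shared, 52.9% of them higher in *Angpt1*ΔNC, with 155 at an unadjusted p under 0.05 and 1966 adjusted p-values not given. Leaving out cells with genes of other types gave 89 (71 shared), male-typed cells alone 76 (23 shared, with only 6 cells in *Angpt1*ΔNC), and EC2 to EC4 summed 688 (111 shared). The count of genes whose change differed in EC2 moved from 29 to 66 against EC3 alone, 78 against EC4 alone, 54 without a filter and 25 with RLE size factors. In male-typed cells alone *Dusp2*, *Ifit3*, *Ifi202b*, *Ddx3y*, *Hmox1*, *Car8* and *Cd24a* lost their call, with DESeq2 *Cxcl9* did, and with EC2 to EC4 summed *Cyp1a1* and *Egr1* did. For the genes named by the ranking rule, no direction reversed in the alternatives that gave them a value, while *Xist*, *Gbp2b*, *Cxcl9* and *Cyp1a1* had none in male-typed cells, *Cyp1a1* and *Car8* none with DESeq2, and *Cyp1a1* none with the cells holding genes of other types left out. Genes named through lists alone were not followed one by one. Without control replicate 1, 147 of the 147 genes kept their direction, and without control replicate 2, 144 did. Sizes moved, the log2 difference being 2.54 and 4.04 for *Cxcl9*, 5.05 and 4.27 for *Gbp2b* and 3.59 and 2.47 for *Dusp2* in these 2 settings.

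The EC2 share ratio of 1.58 was 1.48 among blood endothelial labels and ranged from 1.52 to 1.63 with 1 control left out. The 573 genes above EC3 and EC4 in all libraries became 630 on summed CPM (398 shared) and 1048 to 1155 with 1 library left out, and the 1087 below became 1205 and 1795 to 2043, since fewer libraries must then agree. No paired analysis was possible because the single *Angpt1*ΔNC library can share at most 1 replicate number with the controls, and the numbers used here only name the libraries.

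The limits are the lone *Angpt1*ΔNC library, pools that differ in sex make-up, and 32 to 38 EC2 cells a library.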
